A study of Mus musculus with 16 samples.

Results

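Fast skeletal muscle fibres build their contractile apparatus from their own set of protein isoforms, and 10 genes of that set were followed in the tibialis anterior of mice given growth differentiation factor 15 (GDF15) or pair-fed to its food intake. They were chosen by name: the fast myosin heavy chains Myh4, Myh1 and Myh2, the fast myosin light chains Myl1 and Mylpf, the fast troponins Tnni2, Tnnt3 and Tnnc2, the Z-disc protein Actn3 and the calcium buffer Pvalb. All 10 were among the 14538 genes of the deposited table, and all 10 were among the 11841 genes tested, which had a mean of at least 10 normalized counts. RNA-seq libraries came from 5 vehicle-treated mice (Vehicle 1 to 5), 6 GDF15-treated mice (GDF15 1 to 6) and 5 pair-fed mice (PairFed 2 to 6), with 1 library per mouse, so that the p-values measure the spread between mice. All 16 were wild-type C57BL/6 males (C57BL/6J in the study's methods) that were moved at 8 weeks of age to the NASH diet, a high-fat and high-fructose diet, and to housing near 29 °C. Recombinant GDF15 was injected under the skin each morning; the protocol names 0.3, 1 and 5 nmol/kg, and which of these doses the 6 mice received, and for how long, are not given in the sources used here. Each pair-fed mouse was offered what the GDF15 group had eaten on the previous day, so that GDF15 against pair-fed compares mice on the same intake and pair-fed against vehicle compares the smaller ration with free feeding. Mice were euthanized in the fed state, and a weighed piece of each muscle was extracted; the region of the muscle it came from is not given.

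A fibre shortens when myosin heads pull on actin filaments, and calcium starts this by binding to the troponin complex on the actin filament. Adult limb fibres are typed by their myosin heavy chain: Myh7 marks slow type I fibres, Myh2 type IIA, Myh1 type IIX and Myh4 type IIB, in order of increasing shortening speed and, in general, decreasing oxidative capacity. The mouse tibialis anterior is a fast muscle that flexes the ankle, rich in type IIB fibres. In bulk RNA, fewer fibres of a type and less RNA per fibre cannot be told apart.

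The 3 heavy chain genes lie next to each other on the plus strand of chromosome 11 in GRCm38, in the order Myh2 (chr11:67171027-67197517), Myh1 (chr11:67200052-67224575) and Myh4 (chr11:67238029-67260446). Their coding sequences were 90.2% identical between Myh4 and Myh1, 88.2% between Myh4 and Myh2 and 91.1% between Myh1 and Myh2. The 50 coding bases below are shown because the 3 genes differ there the most; capitals mark each position at which not all 3 share the base, and Myh4 differed from Myh1 at 16 positions, Myh4 from Myh2 at 14 and Myh1 from Myh2 at 18. Sequences are from GENCODE transcripts, positions 3870 to 3919 of the Myh4 coding sequence and 3879 to 3928 of the others.
Myh4: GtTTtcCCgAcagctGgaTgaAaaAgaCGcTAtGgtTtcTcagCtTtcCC
Myh1: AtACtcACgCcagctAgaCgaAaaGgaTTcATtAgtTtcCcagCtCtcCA
Myh2: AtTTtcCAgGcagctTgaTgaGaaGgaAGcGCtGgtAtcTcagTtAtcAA

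Elsewhere they were less distinct: of all windows of 50 bases, the read length of each mate, 18.9% in Myh4, 26.7% in Myh1 and 26.9% in Myh2 were found letter for letter in a transcript of another gene. A mate from such a window does not by itself tell the paralogs apart, though the other mate of its pair may, and how many pairs were ambiguous was not measured, so that the heavy chain levels are uncertain to that extent. Myl1 shared 23.4% of its windows with the pseudogene Mylf-ps, Actn3 0.07% with Actn2, and the 6 others shared none. Exons of Tnnc2 overlap Ube2c on the opposite strand, and those of Myh1 and Myh2 overlap the antisense genes Myhas and 9430073C21Rik. The library kit keeps the strand, but the strand setting of the quantification is not given in the sources used here.

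The sequences just upstream of the heavy chain genes are shown because these neighbours are transcribed at very different levels; they are RefSeq sequences on GRCm38.p6, plus strand. Capitals mark CAGCTG, an E-box, and TATAAA, the TATA box; these letters and the MEF2 consensus were searched on both strands in the 150 bases before the RefSeq start. Myh4 is given at chr11:67237662-67237811, Myh1 at chr11:67199952-67200051, where its GENCODE gene model begins, and Myh2 at chr11:67170877-67171026.
Myh4: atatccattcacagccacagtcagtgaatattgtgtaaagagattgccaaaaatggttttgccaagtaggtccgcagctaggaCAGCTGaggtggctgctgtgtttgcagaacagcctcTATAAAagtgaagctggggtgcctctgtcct
Myh1: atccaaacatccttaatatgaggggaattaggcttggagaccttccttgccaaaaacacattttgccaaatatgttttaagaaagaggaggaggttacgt
Myh2: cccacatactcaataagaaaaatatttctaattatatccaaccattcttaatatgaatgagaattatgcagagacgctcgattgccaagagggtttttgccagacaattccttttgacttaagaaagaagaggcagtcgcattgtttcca

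Myh4 held TATAAA from base -31 to -26 and CAGCTG from -67 to -62, counted from the RefSeq start. Myh1 held TATAAA from -32 to -27, in the 50 bases not printed because they lie within its GENCODE gene model, and Myh2 held none of the 3 motifs. Promoters were found for 7 of the 10 members (Tnni2, Tnnt3 and Actn3 had no entry). TATAAA was in 3 of the 7 (Myh4, Myh1 and Myl1) and in 7.57% of 32851 promoter windows of the same length, and CAGCTG in 2 (Myh4 and Mylpf) and in 8.39% of them. In Myl1 the TATAAA match was on the opposite strand, from -95 to -90, away from its place in Myh4 and Myh1. The MEF2 consensus, present in 0.332% of all windows, was in none of the 7. These matches describe letters and not factor binding.

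The libraries held about 9479218 to 15039282 reads assigned to genes. Replicates correlated at Pearson's r of 0.978 to 0.986 over the tested genes. The members took 13.73% to 15.34% of the normalized counts of vehicle libraries, 13.89% to 15.39% with GDF15 and 14.32% to 16.09% with pair-feeding, with an SD between mice of 0.60, 0.62 and 0.67. Myh4 had the highest normalized count of all genes in vehicle-treated muscle, Tnnt3 ranked 5, Myh1 8, Actn3 9, Pvalb 12 and Myh2, the lowest member, 43. Slow-fibre transcripts set 3 libraries apart. Myh7 had 1094 normalized counts in GDF15 1, 746 in PairFed 3 and 481 in PairFed 6, against 33.1 to 112 in the 13 others, and in 6 of 13 slow-fibre genes (Myh7, Myl2, Tnni1, Tnnt1, Tnnc1 and Atp2a2) the same 3 lay above all 13 others. In the other 7 they did not: Myl3 had 414, 963 and 124 normalized counts in GDF15 1, PairFed 3 and PairFed 6, against 277 to 886 in the 13 others, and Casq2 had 468, 689 and 320 against 300.3 to 1050. Against Myh4 at 703813 counts or more these levels were small, and the label of a fast muscle held in every library. Leaving these 3 out was an alternative chosen after seeing the data, and its values are given beside the differences it moved.

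**Figure D1:**
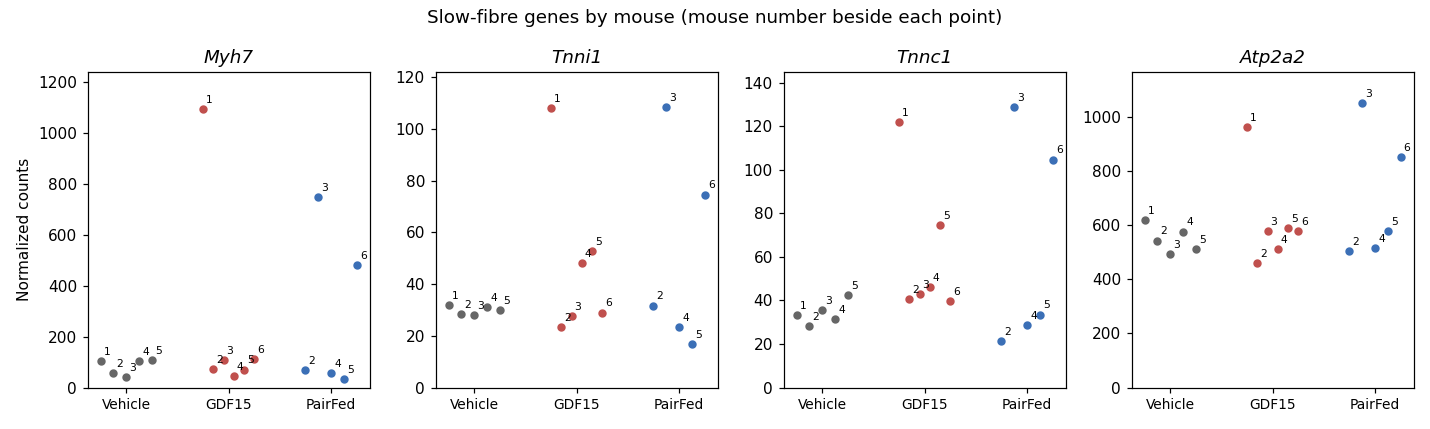
Normalized counts of the slow-fibre genes Myh7, Tnni1, Tnnc1 and Atp2a2 (y axes, starting at 0) in each of the 16 libraries, grouped as Vehicle, GDF15 and PairFed, with the mouse number beside each point. GDF15 1, PairFed 3 and PairFed 6 stand above the rest, with 1094, 746 and 481 counts of Myh7.

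Levels of different genes were compared per kilobase of the longest coding transcript. In vehicle-treated muscle the order of normalized counts per kilobase was Tnnt3 (231777 ± 6643, SD, n = 5), Tnnc2, Myh4, Tnni2, Pvalb, Mylpf, Myl1, Actn3 (43686 ± 2103), Myh1 (27197 ± 3473) and Myh2 (4539 ± 942). Tnnt3 stood apart from the next gene in every group, and so did Actn3, Myh1 and Myh2 from their neighbours. From Tnnc2 down to Myl1 each gene's range over mice overlapped that of the next one in the order, in all 3 groups. Pair-feeding kept this order except that Pvalb came before Tnni2 and Myl1 before Mylpf, both pairs with overlapping ranges.

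Myh1, the heavy chain of type IIX fibres, had the largest log2 difference of the 10 between pair-fed and vehicle in the fit of all 16 libraries. Vehicle 1 to 5 had 174894, 166269, 188359, 166146 and 131259 normalized counts, and PairFed 2 to 6 had 77806, 139363, 110927, 99493 and 95028. GDF15-treated mice had 113816 at the lowest, a median of 132454 and 166367 at the highest. Of the pair-fed mice 4 lay below all vehicle-treated mice, and PairFed 3, a library rich in Myh7, lay above Vehicle 5. On the log2 scale Myh1 fell by 0.68 ± 0.14 (SE; 95% interval -0.96 to -0.39) with pair-feeding against vehicle, 0.62 times the vehicle level, with an adjusted p of 0.0123 (limma, Benjamini-Hochberg). It was the 1 member of 10 that combined an adjusted p under 0.1 with a log2 difference of more than 0.6 either way, which 0.819% of all tested genes did. The difference was -0.79 (adjusted p = 0.00896, limma) without the 3 libraries richest in Myh7 and -0.58, under that fold threshold, without PairFed 2. Myh1 in GDF15-treated mice lay between the other groups and overlapped both, at -0.29 ± 0.13 against vehicle (adjusted p = 0.412; -0.15 after quantile normalization) and 0.39 ± 0.13 against pair-fed (adjusted p = 0.193). Without PairFed 3 the second of these was 0.50 with an adjusted p of 0.0469, and without the 3 libraries 0.55 with 0.0687, so that a single pair-fed library decided this call.

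**Figure D2:**
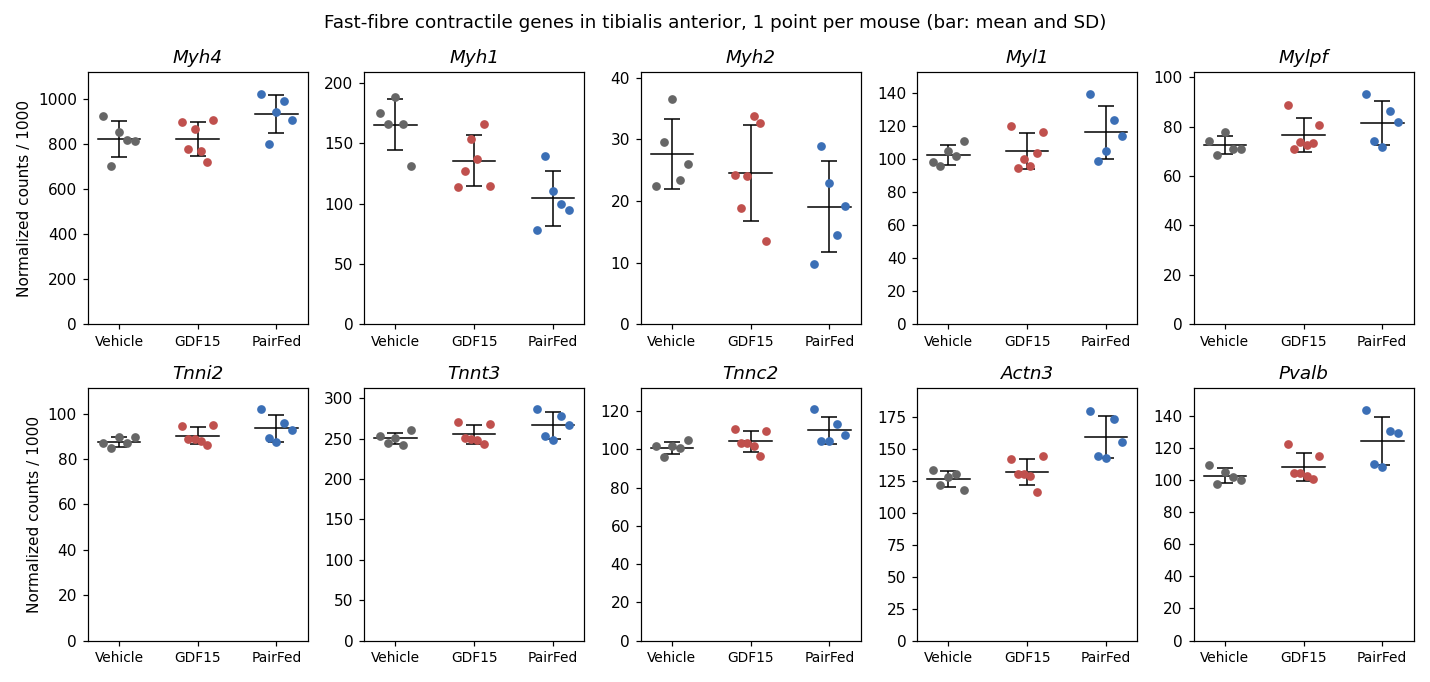
Normalized counts divided by 1000 (y axes, starting at 0) of the 10 members, with 1 point per mouse in mouse order and the mean with its SD as black bars for Vehicle (n = 5), GDF15 (n = 6) and PairFed (n = 5). Myh1 is lowest and Actn3 and Pvalb highest in pair-fed mice, and the troponins differ by little.

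Myh4, the heavy chain of type IIB fibres and the fastest of the 4, had the opposite sign but did not pass the test. It had 924279, 703813, 855889, 818045 and 813343 normalized counts in Vehicle 1 to 5 and 1022206, 801454, 944214, 993526 and 909451 in PairFed 2 to 6. The lowest GDF15-treated mouse had 718999, the median was 823766 and the highest had 906770. Pair-fed mice were on the high side, with 3 of 5 above every vehicle-treated mouse, but the ranges overlapped. The log2 difference was 0.18 ± 0.09 between pair-fed and vehicle (adjusted p = 0.272), -0.18 ± 0.08 between GDF15 and pair-fed (adjusted p = 0.360) and -2.3e-05 ± 0.08 between GDF15 and vehicle (95% interval -0.18 to 0.18). Without the 3 libraries rich in Myh7 the first 2 of these were 0.27 and -0.29, with adjusted p of 0.130 and 0.137 (limma).

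Myh2, which marks the oxidative type IIA fibres, varied most between mice of a group, with a coefficient of variation of 20.8% in vehicle, 31.9% in GDF15 and 38.9% in pair-fed muscle. Its normalized counts were 22464, 29607, 36579, 23383 and 26006 in Vehicle 1 to 5 and 9789, 28999, 22917, 14475 and 19237 in PairFed 2 to 6. With GDF15 they ran from 13481 through a median of 24149 to 33802. PairFed 2 was the lowest and PairFed 3 the highest of the pair-fed mice, as for Myh1, and all 3 groups overlapped. The log2 difference between pair-fed and vehicle was -0.61 ± 0.26 (adjusted p = 0.216, limma), close to that of Myh1 in size but with an SE of 0.26 against 0.14, and without PairFed 3 it was -0.78 with an adjusted p of 0.0882. GDF15 differed from vehicle by -0.22 ± 0.25 and from pair-fed by 0.39 ± 0.25, with adjusted p of 0.816 and 0.531. The first of these was -0.056 without GDF15 6 and -0.11 without Vehicle 3. Without PairFed 2, Myh2 differed by -0.39 between pair-fed and vehicle (adjusted p = 0.451, limma) and by 0.17 between GDF15 and pair-fed (adjusted p = 0.835). Without the 3 libraries rich in Myh7 these differences were -0.88 and 0.65, with adjusted p of 0.119 and 0.303, and the first was then larger in size than that of Myh1.

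Set against each other per kilobase, the 4 adult heavy chain transcripts showed the same pattern within each library, where scaling between libraries plays no part. Myh4 made up 81.1% ± 2.26 of them in vehicle, 83.7% ± 3.35 in GDF15 and 88.3% ± 3.50 in pair-fed muscle (SD). Myh1 made up 16.2% ± 1.88, 13.8% ± 2.64 and 9.89% ± 2.70, and Myh2 2.71% ± 0.60, 2.50% ± 0.89 and 1.82% ± 0.80. Myh7 stayed at or below 0.102% in every library. The ratio of Myh4 to Myh1 was 5.34, 4.28, 4.59, 4.98 and 6.26 in Vehicle 1 to 5 and 13.3, 5.81, 8.60, 10.1 and 9.67 in PairFed 2 to 6. With GDF15 its lowest value was 4.37, its median 5.95 and its highest 7.99. Again PairFed 3 lay within the vehicle range and the other 4 pair-fed mice above it and above all GDF15-treated mice. These shares and ratios combine chosen members and are a description without a test.

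**Figure D3:**
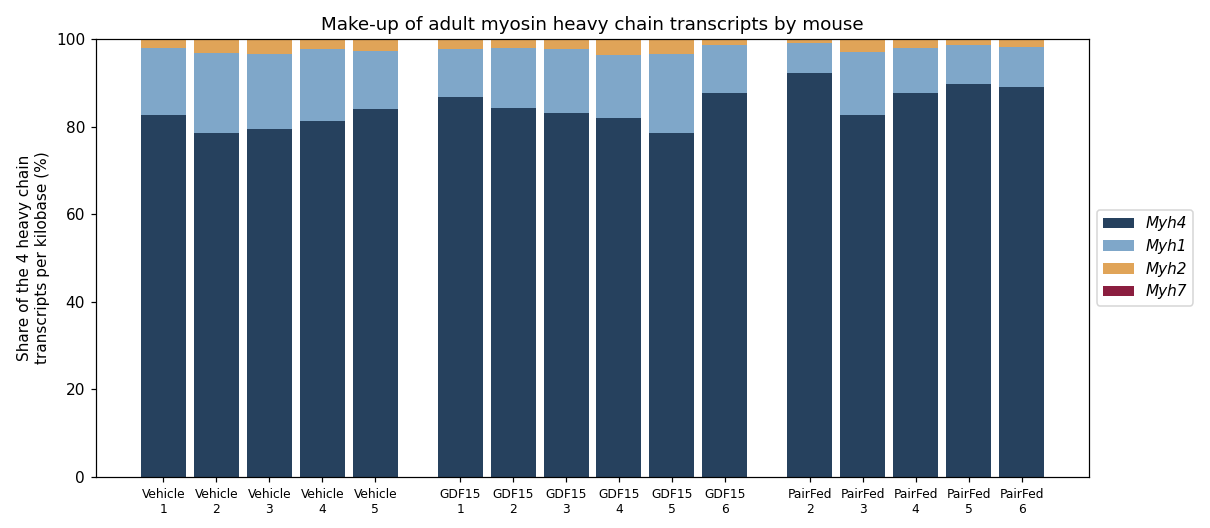
Share of Myh4, Myh1, Myh2 and Myh7 in their sum, in normalized counts per kilobase of transcript (y axis, percent), as 1 stacked bar per library, grouped by treatment with the mouse number below. The Myh4 part runs from 78.4% in Vehicle 2 to 92.2% in PairFed 2, and Myh7 is too small to see.

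The myosin light chains clasp the lever arm of the heavy chain: Myl1 encodes the fast essential light chains and Mylpf the fast regulatory light chain. Myl1 had 98088, 95536, 105028, 102038 and 110770 normalized counts in Vehicle 1 to 5, and 139180, 99037, 104696, 123722 and 114161 in PairFed 2 to 6. PairFed 2, 5 and 6 lay above all vehicle-treated mice and PairFed 3 and 4 among them. Mylpf split the same mice, with 93346, 86475 and 81971 in PairFed 2, 5 and 6 against 68624 to 77798 in vehicle. Neither passed the test: the log2 difference between pair-fed and vehicle was 0.17 ± 0.09 for Myl1 (adjusted p = 0.280) and 0.17 ± 0.07 for Mylpf (adjusted p = 0.223). Against pair-fed, GDF15 differed by -0.14 for Myl1 and -0.09 for Mylpf, and against vehicle by 0.03 and 0.08, with adjusted p of at least 0.484 (limma). Without GDF15 1 the differences of GDF15 from vehicle were -0.0062 for Myl1 and 0.036 for Mylpf. After quantile normalization they were 0.0093 and 0.033. Without the 3 libraries rich in Myh7, pair-fed differed from vehicle by 0.25 for Myl1 and 0.20 for Mylpf, and GDF15 from pair-fed by -0.26 and -0.17, with adjusted p of 0.127 to 0.289. Quantile normalization brought the differences of pair-fed from vehicle down to 0.073 for Myl1 and 0.053 for Mylpf (adjusted p = 0.549 and 0.616), and those of GDF15 from pair-fed to -0.064 and -0.020. Without PairFed 2, Myl1 differed by 0.11 between pair-fed and vehicle, and GDF15 from pair-fed by -0.073 for Myl1 and -0.036 for Mylpf.

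The fast troponins form the calcium switch of the thin filament: Tnnc2 binds calcium, Tnni2 inhibits contraction at rest and Tnnt3 ties the complex to tropomyosin. They varied least between mice, with coefficients of variation of 2.52% for Tnni2, 2.87% for Tnnt3 and 3.13% for Tnnc2 in vehicle and 6.12% to 6.47% in pair-fed muscle. Mean normalized counts in vehicle, GDF15 and pair-fed muscle were 87722, 90283 and 93586 for Tnni2, 250087, 255179 and 266366 for Tnnt3, and 100930, 104124 and 110020 for Tnnc2. The pair-fed mean was the highest for each of the 3, and each group overlapped the others. The log2 differences of pair-fed from vehicle were 0.09 for Tnni2, 0.09 for Tnnt3 and 0.12 for Tnnc2, with SE of 0.05 each and adjusted p of 0.297, 0.375 and 0.194 (limma). Quantile normalization turned the sign for Tnni2 and Tnnt3, to -0.018 and -0.017, and took Tnnc2 to 0.049. It sets each value to the mean of its rank, and Tnnt3 and Tnni2 ranked 5 and 16 in vehicle. The turned sign thus follows ranks more than levels and cannot settle a direction. With single libraries left out the difference was 0.059 to 0.115 for Tnni2 and 0.062 to 0.114 for Tnnt3. Scaling to the same summed count gave 0.045 for Tnni2, 0.042 for Tnnt3 and 0.076 for Tnnc2. GDF15 lay 0.03 to 0.04 above vehicle and 0.05 to 0.08 below pair-fed on the log2 scale, and none of these 6 differences passed. After quantile normalization GDF15 differed from pair-fed by 0.018 for Tnni2, 0.019 for Tnnt3 and -0.041 for Tnnc2. From vehicle it then differed by 0, 0.0014 and 0.0084. Without the 3 libraries rich in Myh7, GDF15 differed from pair-fed by -0.09 for Tnni2, -0.10 for Tnnt3 and -0.13 for Tnnc2, with adjusted p of at least 0.261 (limma). Without PairFed 2 these were -0.018, -0.033 and -0.044.

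Actn3, which anchors actin filaments at the Z-disc of fast glycolytic fibres, was the member with the clearest separation. Vehicle 1 to 5 had 132968, 121912, 127688, 130003 and 118039 normalized counts, and PairFed 2 to 6 had 179559, 144523, 142992, 173243 and 154856. GDF15-treated mice had 116316 at the lowest, a median of 129925 and 144200 at the highest. Every pair-fed mouse lay above every vehicle-treated mouse, which held for 1 of the 10 members and for 5.44% of all tested genes, where groups did not overlap in either direction. Actn3 rose by 0.33 ± 0.07 on the log2 scale with pair-feeding against vehicle, 1.26 times the vehicle level (95% interval 0.18 to 0.48, adjusted p = 0.0167, limma), and stayed under an adjusted p of 0.1 in all 29 alternatives. It was lower with GDF15 than with pair-feeding by a log2 difference of -0.27 ± 0.07 (adjusted p = 0.0678), and GDF15 6 alone reached into the pair-fed range, above PairFed 4. This second call was not firm: the adjusted p was 0.192 without PairFed 5 and between 0.114 and 0.156 without GDF15 2, 3, 4 or 5 or PairFed 2 or 6, each left out alone, where the log2 difference was -0.28 to -0.22. It was 0.126 without a trend in the variance prior and 0.155 with only the compared groups in the fit, both with the log2 difference at -0.27. Quantile normalization brought the difference itself to -0.13 (adjusted p = 0.314), and without the 3 libraries rich in Myh7 it was -0.35 (adjusted p = 0.0489). GDF15 and vehicle differed by 0.06 ± 0.07 (adjusted p = 0.805), and by 0.13 after quantile normalization.

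Pvalb encodes parvalbumin, which takes up calcium in fast fibres and speeds their relaxation. Its normalized counts were 109441, 97473, 105080, 101523 and 99704 in Vehicle 1 to 5 and 143195, 110176, 108168, 130365 and 128883 in PairFed 2 to 6. With GDF15 they lay between 100700 and 122452, with a median of 104313. All pair-fed mice but PairFed 4 lay above every vehicle-treated mouse. Pvalb rose by 0.27 ± 0.07 with pair-feeding against vehicle, 1.20 times the vehicle level (adjusted p = 0.0538, limma), without reaching the fold threshold. After quantile normalization the difference was 0.16 (adjusted p = 0.0868). Leaving out Vehicle 2, Vehicle 5, PairFed 2, PairFed 5 or PairFed 6 alone gave an adjusted p of 0.114 to 0.133, with a log2 difference of 0.21 to 0.26. Leaving out the 3 libraries rich in Myh7 gave 0.30 with an adjusted p of 0.0465. Against pair-fed, GDF15 differed by -0.19 ± 0.07 (adjusted p = 0.229), and against vehicle by 0.07 ± 0.07 (adjusted p = 0.776). Quantile normalization brought the first of these to -0.096, and the second was 0.037 without GDF15 1.

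**Figure D4:**
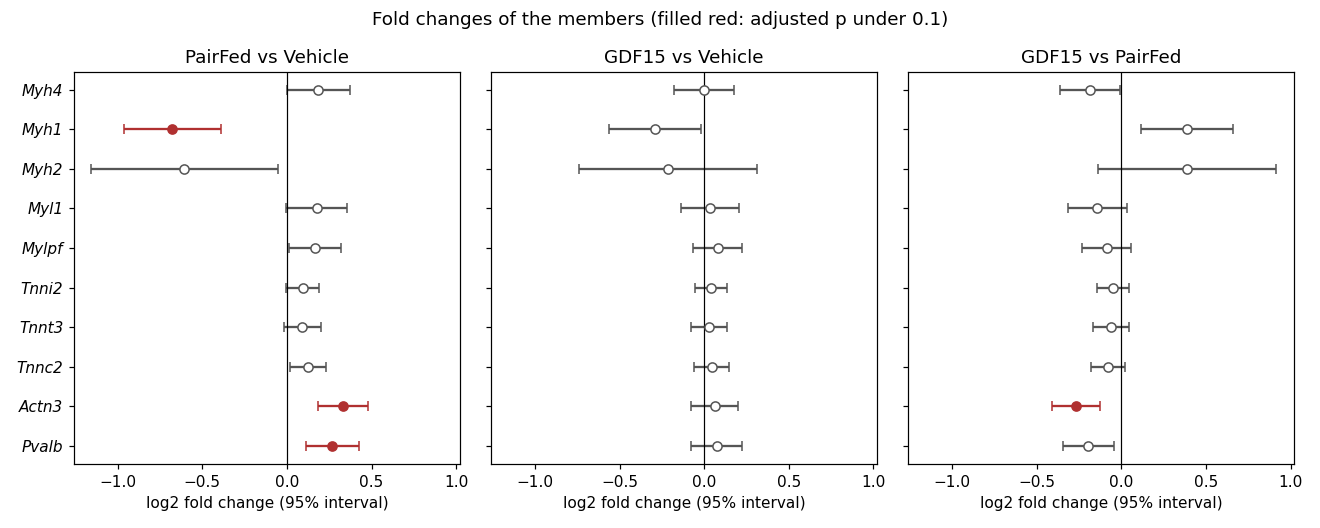
Log2 fold change (x axis) with its 95% interval for the 10 members in each of the 3 comparisons, filled red where the adjusted p was under 0.1 (limma). With pair-feeding against vehicle Myh1 (-0.68), Actn3 (0.33) and Pvalb (0.27) are red, no gene is red for GDF15 against vehicle, and only Actn3 (-0.27) is red for GDF15 against pair-fed.

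Counted together, 3 of the 10 members passed an adjusted p under 0.1 between pair-fed and vehicle, where 6.37% of all tested genes did. Of these, 2 were higher with pair-feeding, where 3.2% of all genes were called higher, and 1 was lower, where 3.17% were. At an unadjusted p under 0.05 the number was 6 of 10, where 18.9% of all genes passed. The median log2 difference of the members was 0.14, with 8 of 10 positive, and that of all tested genes was 0.00. Scaling every library to the same summed count moved the median of all genes to -0.05, and Myh1, Actn3 and Pvalb then stood at -0.73, 0.28 and 0.22, all 3 still under an adjusted p of 0.1. That scaling lowered the share of higher genes among all calls from 50.3% to 23.2%, and leaving the 10 members out of the summed count gave 27.3%.

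Between GDF15 and pair-fed 1 member, Actn3, passed an adjusted p under 0.1, where 2.17% of all tested genes did. None passed the fold threshold as well, which 0.279% of genes did, and the groups overlapped for all 10, while 1.77% of genes had groups that did not. At an unadjusted p under 0.05 the number was 4 of 10, where 13.2% of all genes passed. The median difference of the members was -0.08 against 0.00 for all genes, and 8 of 10 were negative. Between GDF15 and vehicle 0 of 10 members passed in limma, against 0.769% of all genes, and 1, Myh1, had an unadjusted p under 0.05, as did 11% of all genes. Both thresholds were passed by 0.304% of genes and groups did not overlap for 1.65%, and no member was among either. The members' median there was 0.04, with 7 of 10 positive. The 3 comparisons share their groups, so that the values of one are not independent of the others.

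Individual mice tended to be high or low for many members at once. PairFed 2 had the highest pair-fed value for 8 of the 10 members and the lowest for the other 2, Myh1 and Myh2. PairFed 3 was the reverse for Myh1 and Myh2 and lowest for Myh4, Myl1 and Tnnc2, and PairFed 4 was lowest for the other 5. Among GDF15-treated mice GDF15 1 was highest for 5 members and GDF15 6 for 3, and GDF15 5 was lowest for 6. Vehicle 2 was lowest for 6. PairFed 2 and PairFed 3, at opposite ends, held about 14291345 and 14304255 reads, and a link of these levels to read number was not tested.

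Other genes of the fast programme, 9 in a separate list, mostly stood on the same side as Actn3 and Pvalb. With pair-feeding against vehicle 4 of the 9 rose and none fell at an adjusted p under 0.1, where 3.2% of all tested genes rose and 3.17% fell, 8 were positive, and their median log2 difference was 0.19. Mylk2, the kinase of the fast regulatory light chain, rose by 0.38 ± 0.07 (adjusted p = 0.00659, limma). Atp2a1, the fast calcium pump of the sarcoplasmic reticulum, rose by 0.20 (adjusted p = 0.0402), Myoz1, a Z-disc protein of fast fibres, by 0.15 (0.0658) and Mybpc2, the fast myosin-binding protein C, by 0.25 (0.0955). Mylk2 had 22445 to 28651 normalized counts in pair-fed mice, all above the 18557 to 20952 of vehicle-treated mice, and was lower with GDF15 than with pair-feeding by a log2 difference of -0.36 ± 0.07 (adjusted p = 0.0140). Between GDF15 and vehicle 0 of the 9 passed in limma, with 1 at an unadjusted p under 0.05, as had 11% of all tested genes.

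Of 16 sarcomere genes shared by fast and slow fibres, 4 rose and 1 fell with pair-feeding against vehicle, beside the same 3.2% and 3.17% of all genes, with a median of 0.08. Tcap, the telethonin cap of titin at the Z-disc, rose by 0.30 ± 0.05 (adjusted p = 0.00284, limma), and its 5 pair-fed values of 33068 to 36245 lay above the 26572 to 31137 of vehicle. Mypn, Capzb and Tmod4 rose by 0.13, 0.16 and 0.12, and Lmod3, which nucleates thin filaments, fell by 0.20 (adjusted p = 0.0624). Acta1, the skeletal actin that both fibre classes use, differed by 0.10 with an adjusted p of 0.297. Tcap was also lower with GDF15 than with pair-feeding, at -0.17 (adjusted p = 0.0821).

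Of 13 slow-fibre genes, none rose and 1 fell with pair-feeding against vehicle, a share near the 6.37% of all tested genes, with a median of -0.04. The gene that fell was Casq2, the calcium store protein of slow and cardiac muscle, by a log2 difference of -0.82 ± 0.24 (adjusted p = 0.0643, limma). In limma 0 of the 13 passed between GDF15 and pair-fed or vehicle, with 1 and 0 at an unadjusted p under 0.05. Of all tested genes 13.2% and 11% passed that level. The slow counterparts of the members had wide errors, with 3 libraries apart from the rest, as for Myh7 with a log2 difference of 0.80 ± 0.83. Of 7 tested developmental and cardiac myosin genes 0 passed in any comparison in limma, with at most 1 at an unadjusted p under 0.05. That level was passed by 11% to 18.9% of all tested genes. Of 22 transcriptional regulators of the fast and slow programmes, 0 rose and 2 fell with pair-feeding against vehicle, with 11 positive and 11 negative. Of all tested genes 3.2% rose and 3.17% fell. Between GDF15 and pair-fed or vehicle 0 of the 22 passed in limma, with 2 and 3 at an unadjusted p under 0.05. The shares of all genes at that level were 13.2% and 11%. Mef2c, a regulator of contractile genes, fell by 0.16 with pair-feeding against vehicle (adjusted p = 0.0747, limma) and differed by -0.17 between GDF15 and vehicle (adjusted p = 0.141).

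**Figure D5:**
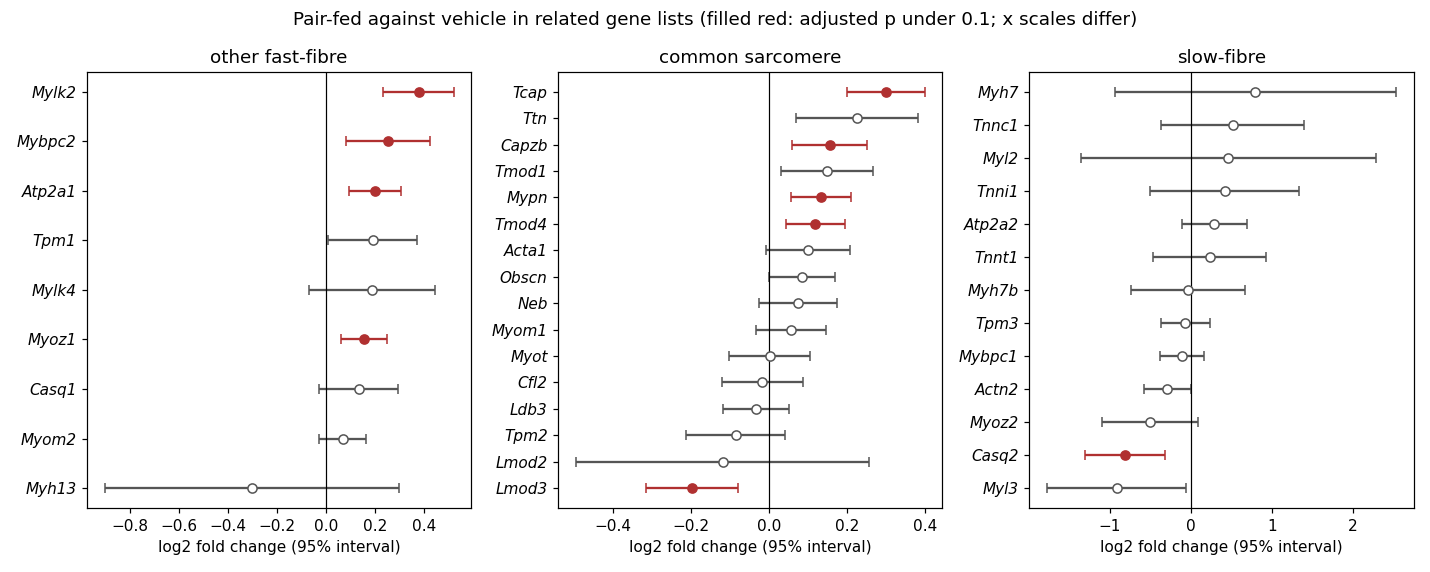
Log2 fold change of pair-fed against vehicle (x axes, with different scales) with 95% interval for 9 other fast-fibre genes, 16 sarcomere genes common to both fibre classes and 13 slow-fibre genes, filled red where the adjusted p was under 0.1. Mylk2 (0.38) and Tcap (0.30) lead their lists, and the slow genes have the widest intervals.

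Markers of other cells gave few calls. No gene of the adipocyte, red blood cell, Schwann cell, fibroblast, macrophage, tenocyte or satellite cell lists, 32 tested in all, passed in any comparison in limma. At an unadjusted p under 0.05 there were 3 between GDF15 and pair-fed, 4 between GDF15 and vehicle and 2 between pair-fed and vehicle. Of all tested genes 13.2%, 11% and 18.9% passed this level. The summed tenocyte markers ran from 1252 to 1795 normalized counts in vehicle, 1830 to 5297 in GDF15 and 1162 to 3832 in pair-fed muscle, with the highest values in GDF15 1, PairFed 2 and Vehicle 2; the first 2 of these mice were highest in their group for many members, and Vehicle 2 was lowest for 6 and highest for none. The tenocyte list held 3 of its 5 markers at an unadjusted p under 0.05 for GDF15 against vehicle, 2 for pair-fed against vehicle and 0 for GDF15 against pair-fed. The shares of all tested genes there were 11%, 18.9% and 13.2%. Tenocyte medians were 1.01, 0.84 and 0.28, with all 5 positive in each. The red blood cell sum ran from 79.9 to 3743 across pair-fed mice, with Alas2 at 0 in 1 of them. Summed adipocyte markers ran from 50.8 to 1193 over all 16 libraries. All 6 were positive for pair-fed and for GDF15 against vehicle, with medians of 0.58 and 0.44, and 3 of 6 for GDF15 against pair-fed. Between GDF15 and pair-fed all 5 Schwann cell, all 5 fibroblast and all 5 macrophage markers were positive, with medians of 0.52, 0.35 and 0.56. Between pair-fed and vehicle 0, 1 and 1 of the 5 were positive. Of 5 endothelial markers 1, Kdr, was lower in pair-fed (-0.50, adjusted p = 0.00473) and in GDF15-treated muscle (-0.66, adjusted p = 0.00116) than in vehicle. At an unadjusted p under 0.05 the number was 4 of 5 for pair-fed and 3 of 5 for GDF15 against vehicle, where 18.9% and 11% of all tested genes passed. Their medians were -0.17 and -0.19, with 4 and 5 of the 5 endothelial markers negative. The part of these other cells in the differences of the members was not tested.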

How the data were processed

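RNA of the tibialis anterior was sequenced as read pairs of 50 bases from 16 mice, and groups and mouse numbers came from the labels. Reads were trimmed (Trim Galore), assigned to transcripts (Salmon) and scaled between libraries (DESeq2) by the authors; the build is mm10, and versions, annotation and strand setting are not given in the sources used here. The authors deposited log2 values (7.32 to 19.96) shaped like variance-stabilized data from DESeq2, and its closed form was inverted to obtain normalized counts. Low values then lay within 0.1 reads of a whole read for 85.3% to 95.9% of genes with 1 transcript and for 20.2% to 26.3% of those with more than 4, so the reads were not recovered and no count test was run. Every column belonged to a sample (0 did not).

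The 11841 genes averaging 10 or more normalized counts entered limma 3.58.1 (R 4.3.3) as log2(normalized count + 1) (trended eBayes after lmFit and contrasts.fit), fitting the 3 groups together without covariates. Tests were two-sided, with Benjamini-Hochberg adjustment over all genes tested. Following the study's thresholds for this muscle, calls needed an adjusted p under 0.1, read alone and together with a log2 difference of more than 0.6 either way. The fit was tested on simulated data. Levels per kilobase, sequences and positions used GENCODE vM21 (GRCm38), in which 14282 symbols were found; coding sequences were aligned with mafft 7.526, and tables were made with Python 3.11.15, pandas 2.3.3 and numpy 2.4.6.

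All members are named with their values. Of the other lists, genes past an adjusted p of 0.1 in any comparison are named, apart from an item that is not reported here, with slow counterparts and the reference genes Mybpc2, Atp2a1 and Acta1 whatever their values. The members and lists were chosen with earlier results of these data known. Alternatives were other pseudocounts, minimum counts, scalings, variance priors and weights, the deposited values as they stand, a fit of the compared groups alone, the mouse number as a block and each library left out.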

Additional observations from a re-analysis of the deposited data

Results flagged for a closer look

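In groups of 5 or 6 mice, a value was set apart when its gap to the nearest other value was large for the range of the group (Dixon's criterion at 95%), which chance alone does in about 1 of 20 groups. Of 105 sets of values examined (31 genes and 4 shares, those of 3 heavy chains and of the members together, each in 3 groups), 5 held a value set apart, and no member was among them. In GDF15 1, Myh7 stood at 1094 normalized counts where the next GDF15-treated mouse had 112, Tnni1 at 108 where the next had 52.9, and Atp2a2 at 963 where the next had 590. Kdr was low in Vehicle 1, at 1102 against 1237 for the next mouse, and high in PairFed 4, at 1065 against 867.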

How the results depend on the processing

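Of 870 log2 differences of members under alternatives, 836 kept their direction and side of an adjusted p of 0.1. Myh1 and Actn3 between pair-fed and vehicle stayed under it in all 29. The number of members under 0.1 between GDF15 and pair-fed was 1, and was 0 without a trend, with only the 2 groups compared and with quantile normalization, 2 without the 3 libraries richest in Myh7, and 0 to 2 with single libraries left out. Past both thresholds between pair-fed and vehicle it was 1, and 0 to 2 with single libraries left out (0 without PairFed 2, 2 without PairFed 3). Signs turned for Myh4 between GDF15 and vehicle (0.0090 with library quality weights, -0.055 to 0.043 with single libraries left out), for Myl1 there (-0.0062 without GDF15 1 and without the 3 libraries; -0.0062 to 0.063 with single libraries left out), and under quantile normalization for Tnni2 and Tnnt3 (0.018 and 0.019 for GDF15 against pair-fed, -0.018 and -0.017 for pair-fed against vehicle). Quantile normalization sets each value to the mean of its rank. Myh4 ranked first in every library, so its differences were 0 there by construction, and that of Tnni2 between GDF15 and vehicle was also 0. The members ranked from 1 to 43 in vehicle, so their values under this setting follow ranks more than levels. Other causes were not tested. Counted per kilobase, the members took 18.3%, 18.5% and 19.4% of vehicle, GDF15 and pair-fed libraries.

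Mice with the same number did not deviate together (correlations of -0.10 to 0.07 over the tested genes). The labels do not say whether the numbers pair mice, and a pairing that moved few genes would not show here. With a replicate block the members' calls were unchanged, with Myh1 at -0.66 (adjusted p = 0.0213), Actn3 at 0.34 (0.0469) and Pvalb at 0.28 (0.0658) between pair-fed and vehicle and Actn3 at -0.29 (0.0928) between GDF15 and pair-fed, while genes called between GDF15 and vehicle went from 91 to 38. Genes called between GDF15 and pair-fed, 257, were 115 without a trend and 122 with the compared groups alone. Those between GDF15 and vehicle were 48 without a trend. Genes past both thresholds were 97 between pair-fed and vehicle, 33 between GDF15 and pair-fed and 36 between GDF15 and vehicle, and 17, 7 and 9 on the deposited log2 values as they stand, a scale that shrinks differences of low genes. Those between GDF15 and pair-fed were 62 without the 3 libraries, and those between GDF15 and vehicle 20 with a replicate block. Among calls between GDF15 and pair-fed the share of higher genes was 42.8%, 72.6% with equal summed counts and 66.8% with the members left out of the sum. With 5 or 6 mice a group, no troponin difference passed an adjusted p of 0.1.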
